A study of Mus musculus with 12 samples.

Results

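The genes described here are those named for the proteasome in libraries of mouse TH17 cells from the central nervous system. They were taken by symbol: the letters Psm, a class letter from a to g and a number. The immunoproteasome subunits Psmb8, Psmb9 and Psmb10 and 5 pseudogene symbols were left out. This gave 48 genes of 47359 in the table. Of these, 46 code for the 20S core, the 19S regulatory particle, activators, an inhibitor or assembly chaperones, and 2, Psmc3ip and Psme3ip1, carry only the name of a binding partner. Filtering on low counts kept 47 members. Psmb11, the thymus-specific catalytic subunit, was left out with 0 to 6 counts per library.

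The proteasome degrades proteins that carry ubiquitin chains. Its 20S core is a barrel of stacked rings: outer rings of alpha subunits form a gate, and inner rings of beta subunits hold the proteolytic sites, on Psmb5, Psmb6 and Psmb7. The 19S particle caps the barrel, with a base of ATPases that unfold substrates and a lid that removes ubiquitin. Interferon-gamma can induce Psmb8, Psmb9 and Psmb10, which replace the catalytic subunits. It also raises the PA28 activator, made of Psme1 and Psme2, for antigen processing. The transcription factor NFE2L1 raises subunit genes when proteasome activity falls short.

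The cells were donor T cells with the 2D2 label, a transgenic receptor against myelin oligodendrocyte glycoprotein. They had been transferred into RAG2-/- hosts, which lack lymphocytes of the T and B lineages. They were recovered from the CNS at the height of experimental autoimmune encephalomyelitis, used as a model of multiple sclerosis in mice, and sorted as CXCR6+ or SLAMF6+, 1000 living cells per library. The groups were 1 library of 2D2-IL-17A/F-DKO CXCR6+ cells, 1 of 2D2-IL-17A/F-DKO SLAMF6+ cells, 5 of 2D2-WT CXCR6+ cells and 5 of 2D2-WT SLAMF6+ cells. DKO cells lack Il17a and Il17f. The labels do not say whether libraries of a group came from separate mice, so p-values measure only the spread between these libraries. A DKO group of 1 library has no spread of its own and was assumed to vary like WT.

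Library totals were 8552216 counts in DKO CXCR6+, 8285134 in DKO SLAMF6+, 6818658 to 8710148 in WT CXCR6+ and 8134987 to 11635037 in WT SLAMF6+. Levels are CPM, counts scaled to 1e6 per library after TMM normalisation. The DKO libraries held 0 and 0.434 CPM of Il17a and 0.116 and 0.145 CPM of Il17f, CXCR6+ first, against 191 to 465 CPM and 17.3 to 144 CPM in WT. All 10 T cell markers had counts in every library, and 6 to 8 of 8 TH17 markers. This tallies genes with any count, the deleted Il17a and Il17f included, and TH17 marker levels differed between DKO and WT. Il23r had 1.85 and 0.145 CPM in the DKO libraries, CXCR6+ first, against 30.9 to 41.5 CPM in WT. Ccr6 went the other way, with 47.3 and 51.7 CPM in DKO against 0 to 0.498 CPM in WT. Cxcr6 ranged over 4.34 to 42.9 CPM in WT CXCR6+, against 11.4 to 19.2 CPM in WT SLAMF6+, so the WT subsets overlapped in Cxcr6. They did not overlap in Slamf6, the other gene of the sort, with 1.69 to 5.02 CPM in WT CXCR6+ and 5.90 to 10.98 CPM in WT SLAMF6+. The lowest Cxcr6 value belonged to WT CXCR6+ replicate 3; without it 38 members were lower and 3 higher between the WT subsets, against 17.2% and 14.7% of all genes. Both DKO libraries held more Cxcr6 than any WT library, with 382 CPM in the CXCR6+ and 162 CPM in the SLAMF6+ sort, and also more Slamf6, with 75.8 and 259 CPM. Haemoglobin took 11.9% of counts in DKO SLAMF6+ and at most 0.000352% in the other libraries. Mitochondrial genes took 7.45% in DKO CXCR6+, 8.56% in DKO SLAMF6+, 12.9 to 17.6% in WT CXCR6+ and 2.2 to 5.24% in WT SLAMF6+.

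The promoter windows of 4 members are shown because they include subunits of opposite response and carry letters known from proteasome gene control. They are RefSeq sequence of GRCm38.p6, from 250 bases before to 50 bases after the start, 5′ to 3′ on the gene's strand. Capitals mark TGACNNNGC, the core of the antioxidant response element bound by NFE2L1 and NFE2L2, or CCAAT, the letters bound by NF-Y, on either strand. Psmb5 codes for the subunit with chymotrypsin-like activity (chr14:54617946-54618245, minus strand), Psmb6 for the one with caspase-like activity (chr11:70525107-70525406, plus strand), Psma2 for an alpha ring subunit (chr13:14612992-14613291, plus strand) and Psme4 for the activator PA200 (chr11:30771525-30771824, plus strand).
Psmb5: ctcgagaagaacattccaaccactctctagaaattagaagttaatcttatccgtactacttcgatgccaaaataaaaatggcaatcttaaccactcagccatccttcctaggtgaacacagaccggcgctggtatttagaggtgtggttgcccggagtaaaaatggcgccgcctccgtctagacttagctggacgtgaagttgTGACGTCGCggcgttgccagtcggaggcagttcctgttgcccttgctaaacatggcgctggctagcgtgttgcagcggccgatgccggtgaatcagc
Psmb6: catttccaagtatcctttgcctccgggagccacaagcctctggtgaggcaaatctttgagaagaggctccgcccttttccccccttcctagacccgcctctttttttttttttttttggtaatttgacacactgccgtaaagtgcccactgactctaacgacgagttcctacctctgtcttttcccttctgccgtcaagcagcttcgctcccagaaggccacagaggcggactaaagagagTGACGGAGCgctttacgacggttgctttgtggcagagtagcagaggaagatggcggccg
Psma2: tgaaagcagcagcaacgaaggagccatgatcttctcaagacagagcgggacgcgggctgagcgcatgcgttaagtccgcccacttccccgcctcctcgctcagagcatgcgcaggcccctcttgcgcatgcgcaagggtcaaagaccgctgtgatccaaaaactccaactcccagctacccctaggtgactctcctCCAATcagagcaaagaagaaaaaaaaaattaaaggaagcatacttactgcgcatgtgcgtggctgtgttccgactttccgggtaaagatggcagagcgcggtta
Psme4: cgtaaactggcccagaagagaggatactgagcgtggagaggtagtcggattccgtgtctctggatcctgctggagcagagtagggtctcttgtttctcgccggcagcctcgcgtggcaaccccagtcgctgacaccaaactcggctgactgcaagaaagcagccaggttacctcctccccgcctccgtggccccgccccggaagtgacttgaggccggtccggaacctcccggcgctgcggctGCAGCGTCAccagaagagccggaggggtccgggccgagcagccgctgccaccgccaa

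TGACNNNGC was present in the windows of Psmb5, Psmb6 and Psme4, and CCAAT in that of Psma2. The first motif was found in 6 of 40 members with a window (15.0%), against 14.0% of 27025 genes with one. The other members holding it were Psmc6, Psmd12 and Psmd9. CCAAT was found in 15 of the 40 members (37.5%), against 41.1% of the 27025 genes. It was present in 7 of 12 genes of the 20S core and 4 of 14 genes of the 19S particle. The shares of members lay near those of all genes for both motifs.

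In WT cells, proteasome genes were lower in CXCR6+ than in SLAMF6+ libraries. Of 47 members tested, 37 were called lower (78.7%), against 17.7% of the 21565 genes tested, and 3 were called higher, against 15.6%. A call is an adjusted p under 0.05 in the quasi-likelihood test of edgeR, adjusted over all genes by Benjamini-Hochberg. The groups did not overlap, with CXCR6+ the lower, for 33 members, against 15% of all genes, and with CXCR6+ the higher for 2 members, against 12.8%. The members' median log2 fold change was -0.55 and that of all genes 0.13. Most differences were under 2-fold: 2 of the 47 members were called lower and at least 2-fold apart, against 4.77% of all genes, a share near their own. Members took 0.645 to 0.708% of all counts in WT CXCR6+ and 0.715 to 0.841% in WT SLAMF6+. Markers of other cell types were also lower in WT CXCR6+: myeloid and microglial markers summed to 62.3 to 96.1 CPM, against 133 to 164 CPM in WT SLAMF6+, and oligodendrocyte markers to 65.5 to 75.0 CPM, against 123 to 149 CPM. Their part in the members' difference was not tested. In bulk libraries, fewer cells of a type and less RNA per cell cannot be told apart.

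**Figure D1:**
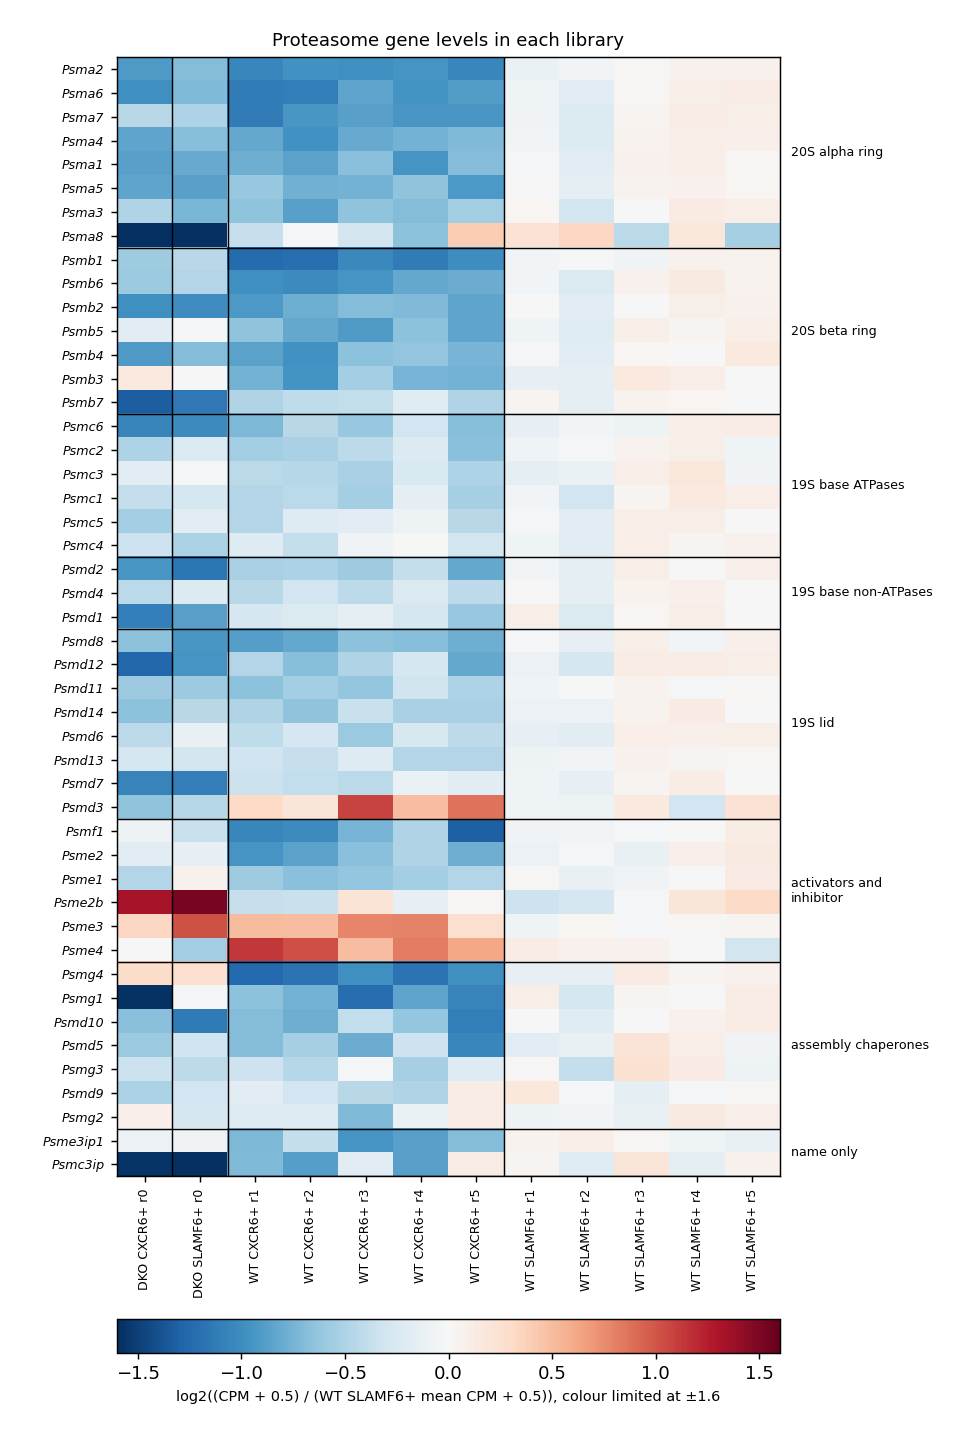
Level of each of the 47 tested members in each of the 12 libraries, as the log2 ratio of CPM to the WT SLAMF6+ mean with 0.5 added to both, by role. Colour is limited at ±1.6. The WT CXCR6+ columns are lower (blue) for most members and higher (red) for Psmd3, Psme3 and Psme4, and Psma8 and Psmc3ip are low in both DKO columns.

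The alpha ring, which gates the core, was lower in 7 of 8 members, with a median of -0.80 over the ring. Gene positions are those of GENCODE M21 on GRCm38. Psma2 (chr13:14613240-14674236, plus strand) had 113, 119, 118, 121 and 113 CPM in WT CXCR6+, against 216, 225, 237, 243 and 244 CPM in WT SLAMF6+. Every CXCR6+ library lay well below every SLAMF6+ library, and the log2 fold change was -1.0 ± 0.05 (SE, adjusted p = 5.14e-07). Psma7 (chr2:180036374-180042433, minus strand), another alpha subunit, had 193, 220.1, 229.8, 221 and 220.3 CPM in WT CXCR6+, against 406, 362, 432, 455 and 449 CPM in WT SLAMF6+. The groups did not overlap, and the log2 fold change was -0.96 ± 0.07 (adjusted p = 4.08e-06). Psma8, the alpha subunit of the testis proteasome, was near the limit of detection with 6 to 16 counts per WT library, and its value of -0.20 did not pass the test (adjusted p = 0.774).

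All 7 tested beta ring members were lower, with log2 fold changes from -1.12 to -0.39. Psmb1 (chr17:15475021-15499751, minus strand), a structural beta subunit, had 135, 137, 155, 145 and 159.5 CPM in WT CXCR6+, against 308, 313, 305, 333 and 329.5 CPM in WT SLAMF6+. The groups were far apart, at a log2 fold change of -1.12 ± 0.06 (adjusted p = 6.24e-07). Psmb2 (chr4:126677630-126709714, plus strand), also structural, had 222, 246, 260.3, 257 and 234 CPM in WT CXCR6+, against 419, 375, 421, 449 and 441 CPM in WT SLAMF6+. The groups did not overlap (-0.79 ± 0.07, adjusted p = 6.5e-06), and with GC and length offsets, which adjust for these 2 properties of a gene, the value was -0.15 and was not called (adjusted p = 0.123). The catalytic subunits were unequal: Psmb6 was at -0.91, Psmb5 at -0.77 and Psmb7, which has trypsin-like activity, at -0.39 (adjusted p = 7.76e-06, 2.29e-05 and 0.00136). The call of Psmb7 was lost and its sign turned with GC and length offsets (0.03, adjusted p = 0.803), and it was also lost with genes of at least 10 CPM only.

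The 19S base differed less. Of its 6 ATPases 5 were lower, with a median of -0.42, and Psmc4 was not called (-0.18, adjusted p = 0.135). The call of Psmc5 (-0.27) was lost in most alternatives, among them leaving out WT CXCR6+ replicate 1 or 5 or WT SLAMF6+ replicate 1, 3, 4 or 5 (adjusted p up to 0.955 over the alternatives). Psmc6 (chr14:45329788-45349705, plus strand), an ATPase of the ring, had 113, 137, 122, 151 and 116 CPM in WT CXCR6+, against 171, 182, 176, 201 and 202 CPM in WT SLAMF6+. The groups were separate, at -0.55 ± 0.09 (adjusted p = 0.000747). Psmc2 (chr5:21785283-21803787, plus strand), a further ATPase, had 66.1, 67.5, 72.5, 83.2 and 60.7 CPM in WT CXCR6+, against 92.7, 95.6, 101, 103 and 92.5 CPM in WT SLAMF6+, also without overlap (-0.47 ± 0.08, adjusted p = 0.0012).

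All 3 non-ATPase members of the base were called lower, but Psmd1 (-0.30) lost its call when WT SLAMF6+ replicate 1, 3, 4 or 5 was left out and in other alternatives (adjusted p up to 0.751). Psmd2 (chr16:20651652-20663414, plus strand), a scaffold that docks ubiquitin shuttles, had 142, 144, 137, 157 and 116 CPM in WT CXCR6+, against 198, 184, 217, 205 and 215 CPM in WT SLAMF6+. The groups did not overlap (-0.55 ± 0.08, adjusted p = 0.000378). Psmd4 (chr3:95032694-95042614, minus strand), a ubiquitin receptor, had 158, 174, 162, 183 and 161 CPM in WT CXCR6+, against 214, 195, 225, 228 and 215 CPM in WT SLAMF6+. The groups did not overlap for Psmd4 either (-0.36 ± 0.06, adjusted p = 0.000988), and with genes of at least 10 CPM only it was -0.10 and not called (adjusted p = 0.128).

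In the lid, 7 of 8 members were lower and Psmd3 was higher. The calls of Psmd6, Psmd7 and Psmd12 were lost with GC and length offsets and with a term for libraries without mt-Ts1 counts. That of Psmd7 was also lost without replicate 1 or 3 of both subsets (adjusted p up to 0.786 over the alternatives). Psmd6, Psmd7 and Psmd13 lost their calls with genes of at least 10 CPM only, and Psmd14 with the offsets. Psmd8 (chr7:29174188-29180701, minus strand), a lid subunit needed for its assembly, had 167, 175, 195, 191 and 179 CPM in WT CXCR6+, against 302, 281, 329, 299 and 326 CPM in WT SLAMF6+. No library of either group entered the other's range (-0.76 ± 0.06, adjusted p = 7.03e-06). Psmd11 (chr11:80428615-80473248, plus strand), a lid scaffold, had 116, 125, 119, 146 and 129.6 CPM in WT CXCR6+, against 175, 182, 189, 179.7 and 185 CPM in WT SLAMF6+ (-0.52 ± 0.07, adjusted p = 0.000123). Psmd3 (chr11:98682554-98695979, plus strand), a lid subunit as well, had 53.4, 49.1, 90.9, 60.2 and 78.5 CPM in WT CXCR6+, against 40.7, 40.2, 47.8, 34.5 and 50.2 CPM in WT SLAMF6+. Replicate 2 of CXCR6+ lay inside the SLAMF6+ range. The log2 fold change of Psmd3 was 0.64 ± 0.18 (adjusted p = 0.0165), and the call was lost without replicate 4 of both subsets (0.60, adjusted p = 0.0521), with GC and length offsets (0.40, 0.101) and with a term for libraries without mt-Ts1 counts (0.55, 0.133).

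The activators moved in both directions. Psme1 and Psme2, the subunits of PA28 that interferon-gamma induces, and Psmf1, the inhibitor PI31, were lower, and Psme3 and Psme4 were higher. Psme1 (chr14:55578123-55581529, plus strand) had 439, 409, 422, 446 and 471 CPM in WT CXCR6+, against 658, 600.2, 626, 653 and 714 CPM in WT SLAMF6+ (-0.57 ± 0.06, adjusted p = 3.41e-05). Psme2 (chr14:55587441-55591113, minus strand) had 348, 369, 419.8, 478 and 390.2 CPM in WT CXCR6+, against 626, 653, 618, 709 and 742 CPM in WT SLAMF6+ (-0.74 ± 0.09, adjusted p = 0.000102). Both were without overlap, and the call of Psme2 was lost with GC and length offsets (-0.24, adjusted p = 0.0655). Psme2b, a copy of Psme2 with which reads may be shared, was not called (-0.11, adjusted p = 0.617), and its counts and those of Psme2 are uncertain.

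Psme3 (chr11:101316213-101323537, plus strand) codes for the nuclear activator PA28 gamma. It had 20.5, 20.4, 24.9, 25.2 and 17.2 CPM in WT CXCR6+, against 13.6, 14.6, 14.1, 14.5 and 14.7 CPM in WT SLAMF6+ (0.60 ± 0.11, adjusted p = 0.00199). Psme4 (chr11:30771726-30880361, plus strand), PA200, which acts on acetylated histones, had 20.8, 19.3, 13.1, 16.5 and 14.4 CPM in WT CXCR6+, against 10.1, 9.69, 9.69, 9.14 and 7.42 CPM in WT SLAMF6+ (0.87 ± 0.16, adjusted p = 0.00132). In both genes every CXCR6+ library was above every SLAMF6+ library. They were low members: per kilobase of transcript, WT CXCR6+ libraries averaged 2.59 CPM of Psme4 and 8.12 CPM of Psme3, against 1.42 and 5.37 CPM in WT SLAMF6+ libraries. Psme2, by contrast, reached 417 CPM per kilobase in the CXCR6+ and 696 in the SLAMF6+ group.

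Of the 7 assembly chaperones 4 were lower. Psmg4 (chr13:34162964-34178173, plus strand), which with Psmg3 guides alpha ring assembly, had 24.5, 25.7, 29.4, 25.5 and 29.6 CPM in WT CXCR6+, against 53.4, 53.6, 64.0, 60.5 and 61.6 CPM in WT SLAMF6+. Its log2 fold change of -1.12 ± 0.08 (adjusted p = 2.9e-06) became -0.51 with GC and length offsets and was still called, while its partner Psmg3 was at -0.30 and not called (adjusted p = 0.103). Psmg1 (chr16:95979933-95990960, minus strand), an alpha ring chaperone that pairs with Psmg2, had 34.3, 32.0, 23.1, 30.1 and 25.7 CPM in WT CXCR6+, against 57.9, 44.8, 56.2, 54.3 and 59.2 CPM in WT SLAMF6+ (-0.91 ± 0.12, adjusted p = 0.000163). Psmg2 was at -0.20 (adjusted p = 0.272). Thus 1 gene of each chaperone pair passed the test. The difference between partners was not tested.

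Of the genes that share only the name, Psme3ip1 (chr8:94574138-94601997, minus strand), whose product binds Psme3, had 22.4, 28.5, 19.2, 20.2 and 22.9 CPM in WT CXCR6+, against 39.0, 40.3, 37.8, 35.5 and 34.2 CPM in WT SLAMF6+ (-0.72 ± 0.11, adjusted p = 0.000421). Psmc3ip (chr11:101091823-101095436, minus strand), a factor of meiotic recombination, had 9.05, 7.90, 13.1, 7.97 and 16.3 CPM in WT CXCR6+, against 15.5, 13.1, 17.3, 13.4 and 15.8 CPM in WT SLAMF6+. The groups overlapped for Psmc3ip, and the value of -0.47 ± 0.22 did not pass the test (adjusted p = 0.121). Without WT CXCR6+ replicate 5 it was -0.66 and called (adjusted p = 0.0223). Its exons overlap those of Mlx on the other strand by 385 nt, where reads cannot be assigned without strand.

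**Figure D2:**
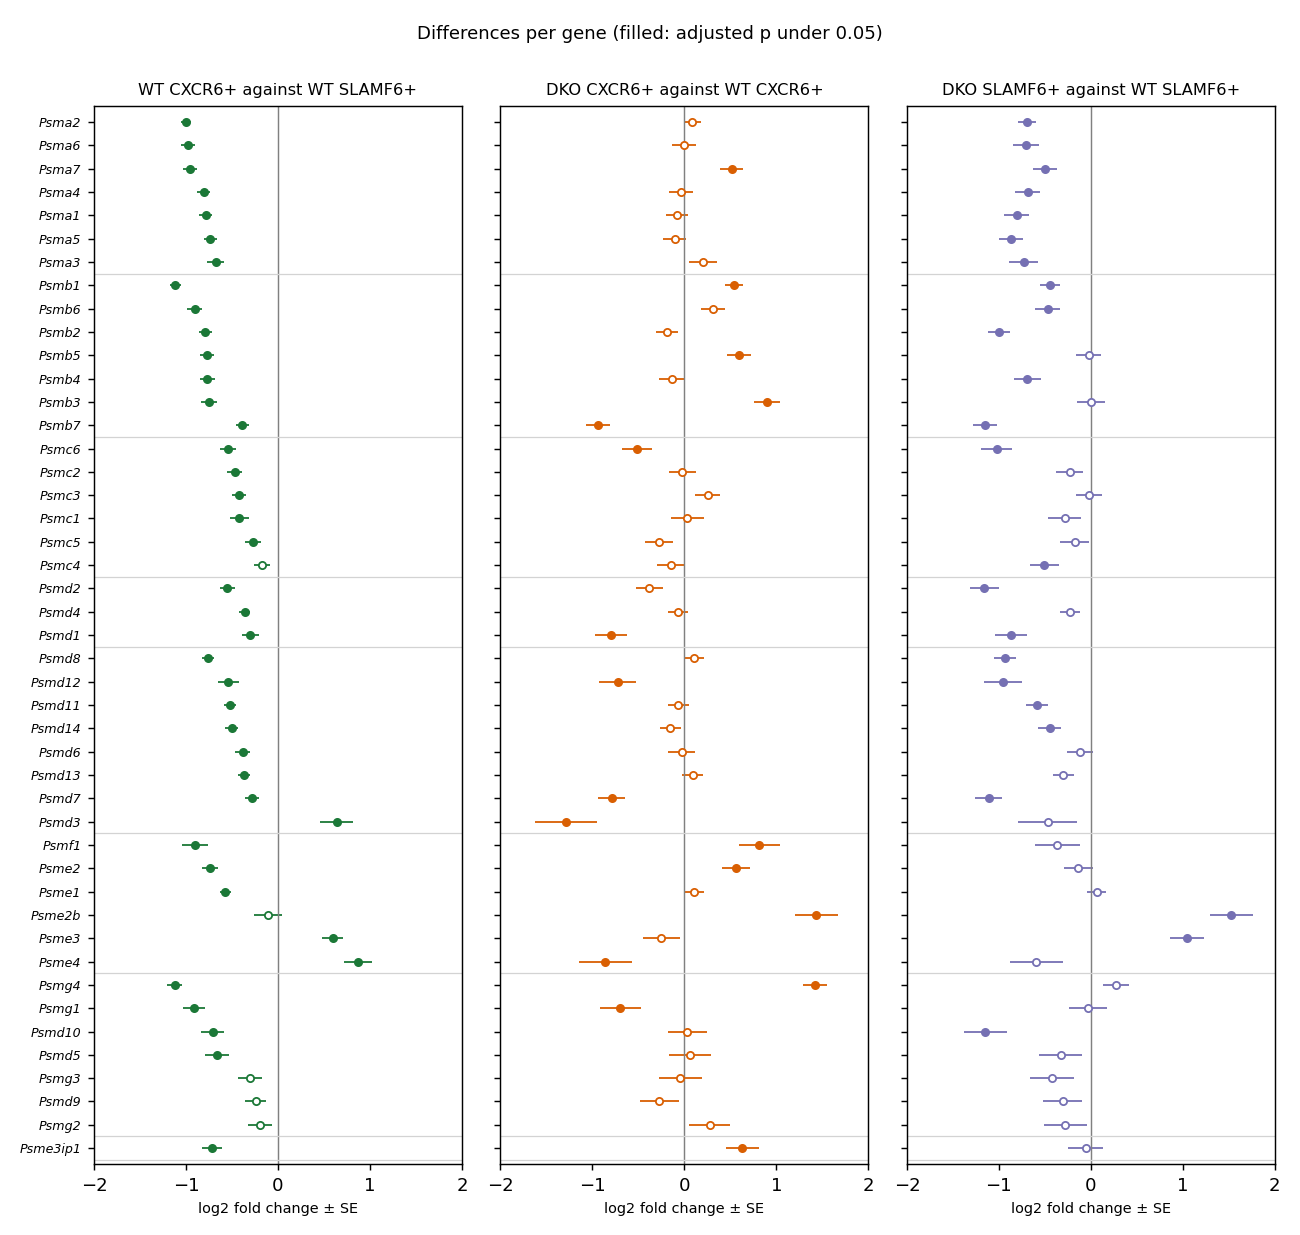
Log2 fold change with its standard error for 45 members in WT CXCR6+ against WT SLAMF6+ and in each DKO library against WT of the same subset. Filled points are called, grey lines part the roles in the order of the heat map, and Psma8 and Psmc3ip lie outside the axis. The 20S members are left of zero in the WT panel and, apart from Psmb3 at 0.00, in the DKO SLAMF6+ panel, and lie on both sides in the DKO CXCR6+ panel.

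The core and the cap were shifted unequally within a library, a comparison that does not rest on scaling between libraries. Summed counts of 20S genes divided by those of 19S genes gave 1.76 in DKO CXCR6+, 1.7 in DKO SLAMF6+, 1.33 ± 0.0744 in WT CXCR6+ and 1.74 ± 0.0424 in WT SLAMF6+ (SD, n = 5 for each WT group). The WT ranges, 1.24 to 1.43 in CXCR6+ and 1.68 to 1.77 in SLAMF6+, did not overlap. The DKO CXCR6+ ratio lay above all WT CXCR6+ libraries and within the WT SLAMF6+ range. In WT the median log2 fold change was -0.79 over 15 members of the 20S rings and -0.42 over 17 of the 19S particle.

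Transcript length and library composition moved with these values. The 20S members had a median transcript of 1165 nt and the 19S members one of 1636 nt. Across the 5359 genes of at least 20 CPM, the WT fold change had a Spearman correlation of 0.409 with transcript length, and across the 47 members one of 0.302. Genes of 1 table share their libraries and are not independent replicates. With the offsets, 26 members were lower, against 18.9% of all genes. The median was -0.38 over the 20S members and -0.26 over the 19S members. Among them, 7 of 8 alpha, 4 of 7 beta and 9 of 17 19S members were lower. Ribosomal protein genes took 10.6 to 12.2% of counts in WT CXCR6+ and 21.5 to 22.8% in WT SLAMF6+, and Malat1, a nuclear RNA, 0.888 to 1.18% and 0.187 to 0.257% in the same groups. The part of RNA quality and composition in the members' difference was not tested.

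**Figure D3:**
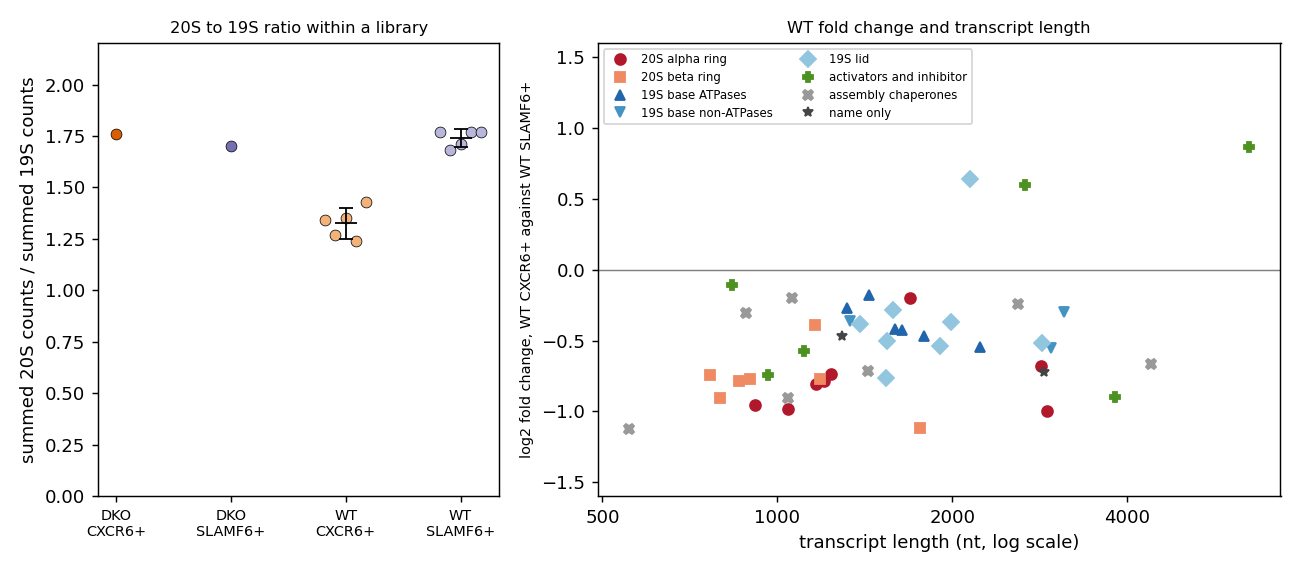
Left, summed 20S counts over summed 19S counts in each library (points), with mean and SD of the WT groups. Right, WT log2 fold change of each member against transcript length on a log axis, with symbols by role. The WT CXCR6+ ratios of 1.24 to 1.43 sit below the other libraries, and short 20S transcripts lie toward the bottom left.

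Libraries also differed in mt-Ts1, a mitochondrial transfer RNA at 0 counts in 1 WT CXCR6+ and 4 WT SLAMF6+ libraries and at 111496 to 357922 counts in the others. The members' median difference, CXCR6+ minus SLAMF6+, was -0.64 among the libraries without it and -0.46 among those with it, but each of these values sets 1 library against 4 and is a description only. With a term for this split 31 members were lower and 2 higher, against 13.4% and 10.4% of all genes.

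In DKO CXCR6+ against WT CXCR6+ the members moved both ways. Of 47 members 9 were called lower (19.1%), against 15.9% of all genes, and 9 higher (19.1%), against 12.8%, together 18 members against 28.7%. With GC and length offsets the calls were 10 lower and 6 higher, against 16.9% and 13.8% of all genes. With genes of at least 10 CPM only, 10 of 46 members were lower and 10 higher, against 28.9% and 27% of all genes. With protein-coding genes only these were 10 and 10 of 47, against 24.6% and 22.3%. In both of these settings the members' shares were below those of all genes. The DKO value lay below all WT libraries for 15 members (28.1% of all genes) and above them for 14 (29.6%). The members' median was -0.04 and that of all genes -0.22. The shares outside the WT range were near those of all genes. T cell markers went both ways in DKO. Trbc2, a receptor constant region, had 1797 and 2026 CPM in the DKO libraries, CXCR6+ first, against 17953 to 31827 CPM in WT, and Trac was below WT too. Cd3e, of the receptor complex, had 578 and 544 CPM in DKO, against 141 to 242 CPM in WT, and Cd3d, Cd3g, Cd247, Thy1, Lck and Trbc1 were likewise above every WT library in both DKO libraries. Oligodendrocyte markers summed to 249.6 and 234 CPM in the DKO libraries, against 65.5 to 75.0 CPM in WT CXCR6+ and 123 to 149 CPM in WT SLAMF6+. Their part in the DKO differences was not tested.

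By role, the calls of DKO CXCR6+ were mixed in the beta ring and all lower in the 19S particle. Of 7 beta members 3 were higher (Psmb1, Psmb3 and Psmb5) and Psmb7 was lower. The call of Psmb5 was lost with GC and length offsets (0.26, adjusted p = 0.177). Of 17 members of the 19S particle 5 were lower (Psmc6, Psmd1, Psmd3, Psmd7 and Psmd12). The call of Psmc6 was lost without WT CXCR6+ replicate 2, as were those of Psme4 (also without replicate 1 or 4) and Psmg1 (also without replicate 4), both lower as well. Outside the beta ring, Psme2b (1.44), Psmf1 (0.82), Psme3ip1 (0.63), Psme2 (0.57) and Psma7 (0.51) were called higher besides Psmg4, and Psma8 was called lower. The calls of Psme2 and Psma7 were lost with GC and length offsets, and that of Psme3ip1 without replicate 1 or 4 of both WT subsets. Psmg4 had 71.9 CPM in DKO CXCR6+, against 24.5 to 29.6 CPM in WT CXCR6+, and was 2.67-fold higher (log2 1.42 ± 0.13, adjusted p = 1.25e-05). Psmb3 (chr11:97703399-97713500, plus strand), a structural beta subunit, had 435 CPM in DKO CXCR6+, against 232, 201, 268, 233 and 231 CPM in WT CXCR6+ (0.90 ± 0.14, adjusted p = 0.000639). Both DKO values were above every WT library of the subset. Beside the WT SLAMF6+ libraries, Psmg4 was above their 53.4 to 64.0 CPM and Psmb3 within their 351 to 437 CPM.

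Psmb7 (chr2:38588036-38644087, minus strand) was called lower in both DKO libraries. It had 65.5 CPM in DKO CXCR6+, against 117, 124, 125, 144 and 117 CPM in WT CXCR6+ (-0.94 ± 0.13, adjusted p = 0.000274). In DKO SLAMF6+ it had 74.0 CPM, against 169, 148, 171, 168 and 164 CPM in WT SLAMF6+ (-1.15 ± 0.13, adjusted p = 7.43e-05). Both DKO libraries were below all 10 WT libraries. An exon of Psmb7 overlaps one of Nek6 on the other strand by 253 nt, and reads there cannot be told apart in these unstranded libraries. The matching immunoproteasome subunit, Psmb10, was higher in both DKO libraries, with 258 CPM in the CXCR6+ and 288 CPM in the SLAMF6+ library, against 90.0 ± 8.48 and 125 ± 14.4 CPM in WT of the same subset (SD, n = 5 each; log2 1.52 and 1.20, adjusted p = 1.87e-05 and 0.000124).

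Set against each other within a library, Psmb10 over Psmb7 per kilobase was 3.49 in DKO CXCR6+ and 3.44 in DKO SLAMF6+, against 0.548 to 0.755 in WT CXCR6+ and 0.606 to 0.72 in WT SLAMF6+. The other catalytic pairs stayed within the span of all WT libraries. In DKO SLAMF6+, however, Psmb8 over Psmb5 lay below the WT SLAMF6+ range and Psmb9 over Psmb6 above it. Psmb8 over Psmb5 was 2.11 in DKO CXCR6+ and 1.78 in DKO SLAMF6+, against 1.72 to 2.16 in WT CXCR6+ and 2 to 2.34 in WT SLAMF6+. Psmb9 over Psmb6 was 0.465 in DKO CXCR6+ and 0.513 in DKO SLAMF6+, against 0.428 to 0.515 in WT CXCR6+ and 0.354 to 0.491 in WT SLAMF6+. In WT alone, Psmb8, Psmb9 and Psmb10 were all lower in CXCR6+ (-0.98, -0.73 and -0.48), as were Psmb5, Psmb6 and Psmb7.

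**Figure D4:**
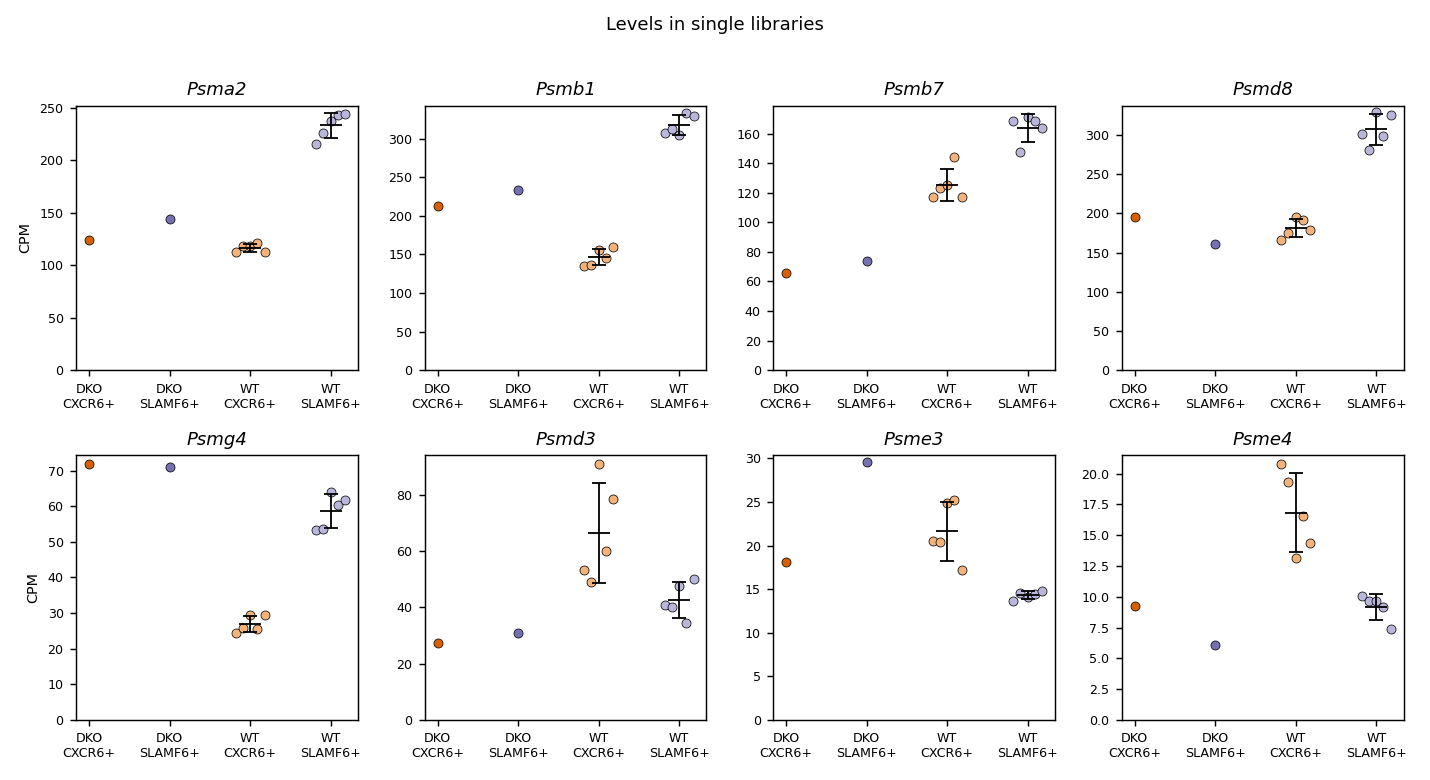
CPM of 8 members in each library (points), with mean and SD of the WT groups (n = 5) and single DKO libraries. Psmb7 is lower in both DKO libraries than in all WT libraries, Psmg4 is higher in both, and Psmd8 in WT SLAMF6+ lies above the other groups.

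In DKO SLAMF6+ against WT SLAMF6+ most calls were lower. Of 47 members 24 were lower (51.1%), against 17.5% of all genes, and 2 were higher, against 13.5%. With genes of at least 10 CPM only, 18 of 46 were lower and 4 higher, against 27.4% and 30.4% of all genes. The DKO library lay below all WT libraries for 36 members (30.9% of all genes) and above them for 3 (35.1%). The median was -0.47 over the members and -0.05 over all genes. This was the library in which haemoglobin took 11.9% of counts and the erythroid markers summed to 143800 CPM, against 2.66 CPM in DKO CXCR6+ and 0.972 to 3.58 CPM in WT. When receptor, immunoglobulin, mitochondrial, ribosomal protein and haemoglobin genes were left out, 25 members were lower and 2 higher, against 18.3% and 13.1% of all genes. Any further part of erythroid RNA was not tested.

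All 8 alpha members, Psma8 at 0 counts included, were called lower in DKO SLAMF6+, with Psma2 at -0.69, Psma5 at -0.87 and Psma7 at -0.50. The call of Psma7 was lost with GC and length offsets, with genes of at least 10 CPM only and with the mt-Ts1 term (adjusted p up to 0.167), and that of Psma8 with limma-voom (0.0771). Psma8 had 0 counts in both DKO libraries, at least 3.08-fold lower in DKO CXCR6+ than in WT CXCR6+ and at least 2.83-fold lower in DKO SLAMF6+ than in WT SLAMF6+, taking a floor of 3 counts per library. The medians of the members were the same with Psma8 at these bounds (-0.04 and -0.47). Of the beta members 5 of 7 were lower. Psmb2 had 211 CPM in DKO SLAMF6+, against 419, 375, 421, 449 and 441 CPM in WT SLAMF6+ (-1.0 ± 0.12, adjusted p = 0.000116). Psmb5 and Psmb3 were not called, with -0.02 and 0.00 (adjusted p = 0.939 and 1).

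Of the 19S particle, 9 of 17 members were lower in DKO SLAMF6+: 2 ATPases, 2 of the other base members and 5 of the lid. Psmc4, an ATPase, lost its call when WT SLAMF6+ replicate 3, 4 or 5 was left out and in other alternatives (adjusted p up to 0.222), and Psmd14, the deubiquitinase of the lid, in 4 alternatives that left out no library (adjusted p up to 0.313). Psmd8 had 161 CPM in DKO SLAMF6+, against 302, 281, 329, 299 and 326 CPM in WT SLAMF6+ (-0.93 ± 0.12, adjusted p = 0.000155), lower than in every other library. Among the chaperones only Psmd10, which assists the base, was called (-1.15, adjusted p = 0.00334). The members called higher were Psme2b (1.53, adjusted p = 0.000544) and Psme3, which had 29.5 CPM in DKO SLAMF6+, against 13.6 to 14.7 CPM in WT SLAMF6+ (1.05, adjusted p = 0.00129).

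The difference between DKO and WT was tested between subsets by the interaction of genotype and subset. It was called for 17 members (36.2%), against 10.3% of all genes: 16 were higher in DKO relative to WT among CXCR6+ than among SLAMF6+ cells (6.36% of all genes) and Psme3 was lower (3.94%). The members' median was 0.51 and that of all genes -0.10. With genes of at least 10 CPM only, 2 of 46 members were called lower and 12 higher, against 15.5% and 12.8% of all genes. The medians were then 0.25 over the members and -0.06 over all genes. Of the 20S rings 11 of 15 members were called, 7 alpha and 4 beta, and of the 19S particle 2 of 17, Psmd2 and Psmd8. Psmd8 was at 1.04 ± 0.16 (adjusted p = 0.0034), made of 0.10 in CXCR6+ and -0.93 in SLAMF6+. Psmb1 was at 0.99 ± 0.15 (adjusted p = 0.00339), made of 0.54 in CXCR6+ and -0.45 in SLAMF6+. Psma2 was at 0.78 ± 0.13 (adjusted p = 0.00456), made of 0.09 in CXCR6+ and -0.69 in SLAMF6+. These 3 kept their calls in every alternative that kept the threshold, while the count of called members was 7 with GC and length offsets and 9 without replicate 1 of both WT subsets. This comparison uses the same WT and DKO libraries as the others and is no separate support for them.

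Between the DKO libraries 45 of 47 members differed by less than 2-fold. The log2 ratio of DKO CXCR6+ to DKO SLAMF6+ had a median of -0.11 over the members and 0 over all genes, computed after adding a prior count of 2; 1 library each allows no test. A 2-fold size was reached by 1 member in each direction, against 13.9% of all genes higher and 16.5% lower. Psmc3ip held 4.74 CPM in the CXCR6+ and 1.45 CPM in the SLAMF6+ library, and Psmg1 held 17.9 CPM and 53.3 CPM. In WT the 2-fold size was passed by 2 of the members called lower, Psmb1 and Psmg4. In DKO, CXCR6+ first, Psmb1 had 213 and 233 CPM and Psmg4 had 71.9 and 71.0 CPM.

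Other genes of the pathway were taken from 4 lists, to be read in WT against the 17.7% of all genes called lower and 15.6% called higher. Of 8 tested genes for ubiquitin, its relative Nedd8 and their activating enzymes, 7 were lower in CXCR6+ (median -0.59), among them the ubiquitin genes Rps27a (-1.05, adjusted p = 1.16e-06) and Ubb (-0.95, 6.09e-06). Rps27a also codes for a ribosomal protein. Of 11 partners of the proteasome without the name, 4 were lower and 3 higher (median -0.05): Sem1, a lid component, was at -0.75 (adjusted p = 1.5e-06), Txnl1, a thioredoxin bound to the cap, at -0.79 (3.67e-06) and Pomp, which matures the core, at -0.71 (0.000166). Of 11 shuttle factors and p97 cofactors 3 were lower and 3 higher (median -0.04).

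Of 9 tested regulators of proteasome genes, 3 were lower and 2 higher in WT (median -0.03). Ngly1, the glycanase that processes NFE2L1, was at -1.08 (adjusted p = 2.6e-05), Mafg, a small partner of NFE2L1, at 0.89 (0.000147) and Keap1, which holds NFE2L2 in check, at -0.34 (0.00285). Nfe2l1 was lower in both DKO libraries. It had 14.7 CPM in DKO CXCR6+, against 46.0, 36.1, 34.5, 47.3 and 43.5 CPM in WT CXCR6+ (-1.50, adjusted p = 0.000121). In SLAMF6+ cells it had 15.6 CPM in DKO, against 54.0, 53.8, 53.5, 56.3 and 53.6 CPM in WT (-1.79, adjusted p = 4.08e-05). In DKO CXCR6+ against WT the counts were 3 lower and 3 higher of 8 for ubiquitin genes, 3 and 1 of 11 for partners, 2 and 2 of 11 for shuttles and 2 and 1 of 9 for regulators, against 15.9% and 12.8% of all genes. In DKO SLAMF6+ against WT they were 5 and 0, 4 and 0, 4 and 0, and 4 and 1 of the same lists, against 17.5% and 13.5% of all genes.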

How the data were processed

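RNA was sequenced as unstranded full-length cDNA libraries (modified SMART-Seq2, Nextera XT, paired reads) from 12 samples, per the labels' protocols. The deposited table holds the authors' expected counts by symbol, in whole numbers; the tools were STAR 2.7.7a, then RSEM 1.3.3, with the build mm10, per the submitters' processing notes. The sources used here do not give the annotation or how shared reads were split. Exons of 7 members overlap a gene on the other strand by at least 100 nt. Gene positions and transcript lengths are from GENCODE M21 (GRCm38, 41856 symbols matched); promoters are RefSeq's.

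The 12 libraries, in 4 groups from the labels, entered 1 fit in edgeR 4.0.16 (R 4.3.3; TMM, filterByExpr, quasi-likelihood test, 21565 genes, 8 residual degrees of freedom, common dispersion 0.396), without a block. All p-values were adjusted over the 21565 genes. The steps were also run on counts simulated with the fitted spread. In that run a DKO library varied like WT by construction, so it cannot check that assumption. The same replicate numbers occur in both WT subsets. After removing group means, correlations over all tested genes were -0.0117 to 0.029 for same-numbered WT libraries. For other pairs they were -0.0392 to 0.0335. Counting noise in low genes weakens such values, so they cannot tell whether the samples were paired. Alternatives were another scaling, DESeq2 1.42.0, limma-voom 3.58.1, other filters and gene sets, GC and length offsets (spline with 5 degrees of freedom, 91.7% of tested genes), a replicate block, an mt-Ts1 term and left-out libraries.

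Members and lists were chosen with earlier results of these data known. Values per library are given for the 2 members of each role with the smallest p in WT, those called against the majority, and the 3 with the smallest p in each other test; other members were named after their values were seen. No protein sequences were compared. Some genes of the other pathway lists are not reported here by name.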

Additional observations from a re-analysis of the deposited data

Results flagged for a closer look

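In 3 of 94 groups of 5 WT libraries, 1 library stood apart from the others, and chance flags about 1 in 20 groups. Psma7 had 193.2 CPM in WT CXCR6+ replicate 1, with 220.1 to 229.8 CPM in the others. Psmc1 had 103.3 CPM in WT CXCR6+ replicate 4, with 78.82 to 85.71 CPM in the others. Psmd1 had 70.19 CPM in WT SLAMF6+ replicate 2, with 83.08 to 88 CPM in the others.

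The DKO effect differed between subsets for 17 members by the interaction test (log2, effect in CXCR6+ minus effect in SLAMF6+). In the alpha ring the values were 0.78 for Psma2, 1.01 for Psma7, 0.76 for Psma5, 0.93 for Psma3, 0.73 for Psma1, 0.70 for Psma6 and 0.65 for Psma4. In the beta ring they were 0.99 for Psmb1, 0.81 for Psmb2, 0.89 for Psmb3 and 0.78 for Psmb6. Outside the core they were 1.04 for Psmd8, 0.77 for Psmd2, 1.14 for Psmg4, 1.18 for Psmd10, 2.17 for Psmc3ip and -1.30 for Psme3. Of the 17 calls, 3 held in all 25 alternatives that kept the threshold.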

How the results depend on the processing

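The medians and the members named by rule kept their direction under all alternatives, while Psmb7 and Psmc5, both called lower in WT, changed sign with GC and length offsets (to 0.025 and 0.0345). Of the calls, 24 of 40 in WT, 7 of 18 in DKO CXCR6+, 20 of 26 in DKO SLAMF6+ and 3 of 17 in the interaction held in all. In WT 26 to 38 members were lower and 2 or 3 higher over 26 alternatives at the same threshold, and with libraries left out 34 to 38 and 2 to 3. The lowest count came with GC and length offsets. With genes of at least 10 CPM in 5 libraries it was 28, against 30.4% of all genes; the median of all genes was then 0.02, the lowest of the alternatives, beside 0.13 as reported. The members' median ran from -0.60 to -0.29. In DKO CXCR6+ against WT, leaving out libraries gave 7 to 11 lower and 8 to 9 higher members, and a fit of only the groups compared gave 4 lower. In DKO SLAMF6+ against WT these were 22 to 25 lower and 2 higher, and 4 were higher with at least 10 CPM. The interaction was called for 9 to 19 members with libraries left out, for 7 with the offsets and for 9 with the mt-Ts1 term. Asking for at least 2-fold as well left 2 lower and 0 higher members in WT (edgeR; also 0 at an unadjusted p under 0.05 and with DESeq2 and limma-voom), 2 and 2 in DKO CXCR6+, 7 and 2 in DKO SLAMF6+ and 6 in the interaction (1 lower, 5 higher). The shares of all genes were 4.77 and 8.4%, 12.8 and 8.56%, 13.2 and 10.7%, and 3.6 and 4.23%. With a replicate block 37 members were lower and 3 higher in WT and 13 were called in the interaction; no paired fit of DKO against WT was possible because the DKO libraries share the number 0 with no WT library. The causes were not tested. A single DKO library per subset limits these comparisons to its own counts.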
